A study of Homo sapiens with 12 samples.

Results

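Aminoacyl-tRNA synthetases are the enzymes that load each transfer RNA with its amino acid. The 36 genes described here were chosen by symbol from a count table of 55765 genes, and comprise 20 cytosolic and 16 mitochondrial enzymes. All 36 were in the table and all 36 passed the filter on low counts. RNA had been sequenced from OCI-AML2, a human acute myeloid leukaemia line, grown as clones from single cells that carried a doxycycline-inducible MEF2C construct. The libraries formed 4 groups of 3, namely S222A induced, S222A uninduced, WT induced and WT uninduced. In S222A, serine is replaced by alanine in MEF2C, a DNA-binding regulator best known from muscle and also active in blood cells, and WT is the wild-type protein. Induced cells had received 600 ng doxycycline in 3 ml cultures for 48 h, and uninduced cells had received vehicle for the same time. The number of clones behind each line is not given, and doxycycline-treated cells without a construct were not analysed here, so an effect of the drug cannot be told apart from that of the construct. Whether replicates were grown separately is not stated, and the p-values rest on the spread between these libraries, which may be technical.

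Cells need a complete set of synthetases on each side of the mitochondrial membrane. The cytosolic enzymes serve translation of nuclear-encoded messages on cytosolic ribosomes, and several of them are held together in a multisynthetase complex. The mitochondrial enzymes are also nuclear-encoded, but are imported to serve the few proteins made inside the organelle. GARS and KARS each encode both forms, EPRS charges both glutamate and proline, FARSA and FARSB are the subunits of 1 enzyme, and glutaminyl-tRNA in mitochondria is made by an amidotransferase rather than by a dedicated synthetase. Many cytosolic synthetase genes are known targets of ATF4, the transcription factor of the amino acid and unfolded-protein stress responses.

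Depth varied 15-fold, between 875710 and 13134791 counts per library. CPM below are counts per 1e6 counts, scaled by TMM factors. S222A uninduced replicate 3, at 930960 counts, stood apart on MYC, with 53.66 CPM where the next lowest uninduced library of that line had 210.54 CPM. The deepest library of each group held 5.03 to 7% mitochondrially encoded counts and the other 8 held 6.86 to 9.27%. MEF2C ranged from 786.28 to 956.11 CPM in S222A induced libraries against 605.31 to 801.61 CPM in S222A uninduced ones, and from 674.36 to 844.12 CPM in WT induced libraries against 645.3 to 816.65 CPM in WT uninduced ones, with no change called. Of 8 myeloid markers, 7 were detected in all 12 libraries, and CEBPA was at 0 counts in all 12. PTPRC stood at 516 to 760 CPM, AZU1 at 116 to 517, SPI1 at 35 to 73.1 and CD33 at 27.5 to 58 CPM. MPO (0.693 to 19.3 CPM), LYZ (1.99 to 23 CPM) and CSF1R (2.04 to 8.21 CPM) were low. In some libraries these reached the level of markers of other cell types. The 8 markers of other cell types found in the table stayed at or under 2.08 CPM, with HBA1, EPCAM and KRT19 at 0 in all 12 libraries.

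The cytosolic synthetases were the more abundant set. Divided by the length of their exons in kilobases, their median level over the 4 groups was 40.1 CPM per kb, with a range of 2.96 to 119, against a median of 7.22 CPM per kb, with a range of 1.56 to 66, for the mitochondrial synthetases. FARSA, the catalytic subunit of the phenylalanine enzyme, led at 119 CPM per kb, followed by KARS at 103 and DARS at 101 CPM per kb. These 3 neighbours did not differ beyond their spread over groups. IARS2, the mitochondrial isoleucine enzyme, was the exception in its set, at 66 CPM per kb, rank 8 of 36 in all. The next mitochondrial members were CARS2 at 24.5 and RARS2 at 22.4 CPM per kb. At the other end stood PARS2 (1.56 CPM per kb), AARS2 (2.2 CPM per kb) and HARS (2.96 CPM per kb), the last being the lowest cytosolic member. Mitochondrial values rest on fewer reads. Over the 12 libraries their counts summed to 28269, against 155207 for the cytosolic set, 8 of the 16 averaged under 20 CPM, and the smallest count was 2, for PARS2 in WT induced replicate 2.

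**Figure D1:**
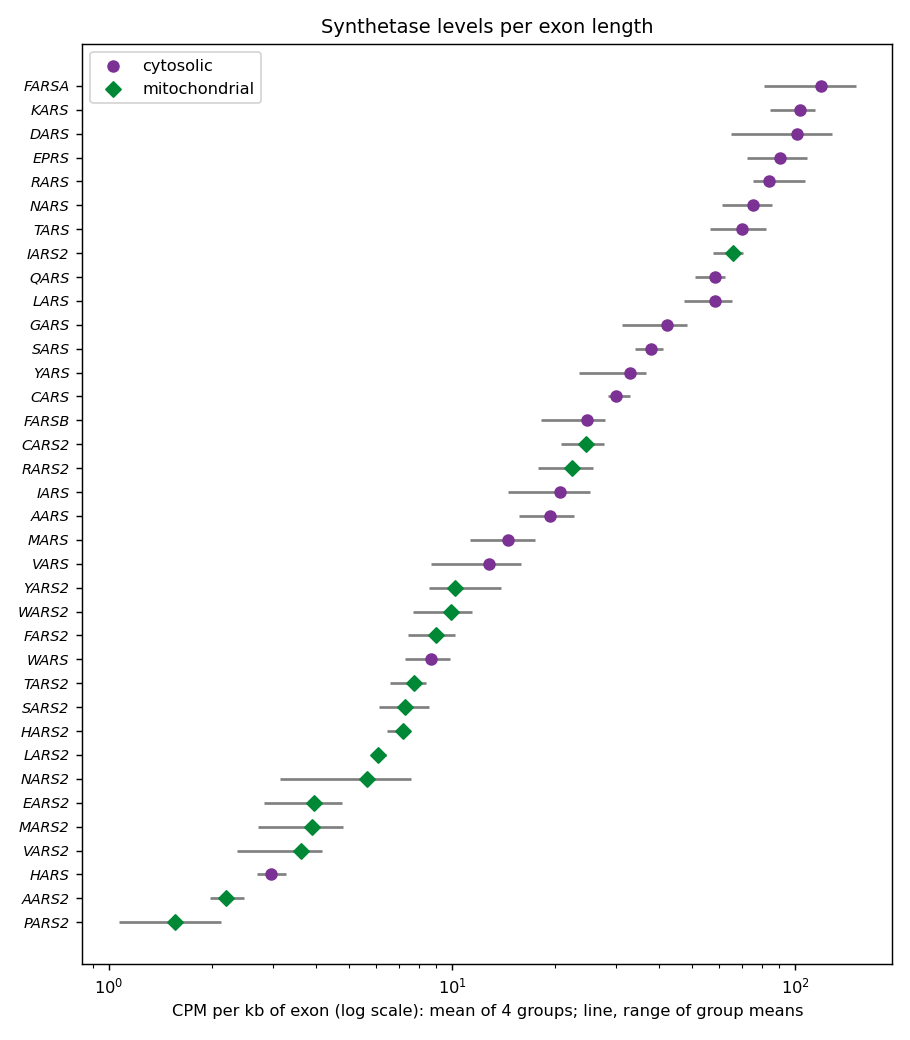
Level of each synthetase in CPM per kb of exon on a log scale; the symbol is the mean of the 4 group means and the grey line spans the lowest to the highest group mean. Cytosolic genes (circles) fill the upper ranks with IARS2 at rank 8 as the first mitochondrial gene (diamonds), and the mitochondrial PARS2 is last at 1.56.

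Some counts are uncertain because gene models share sequence positions. In GENCODE v29 exons, 67.4% of SARS2 lay under other genes on the same strand and 83.1% on either strand, among them MRPS12, so SARS2 counts may be split or lost. The value on either strand was 19.5% for HARS2, 15.5% for HARS, 12.2% for YARS and 11.3% for WARS, and the strand setting of the counting is not given in the sources used here.

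Start sites of 30 of the 36 genes were matched to RefSeq promoter windows (GRCh38.p14), each running from 250 bases before to 50 bases after the start. Each window was searched on both strands for TGATGNAA, the C/EBP-ATF response element bound by ATF4, and for the palindromes TGACGTCA (cyclic AMP response element) and CACGTG (E-box, bound by MYC among others). No match of 1 motif overlapped a match of another. TGATGNAA was present in 6 of 30 windows (20%), against 3.62% of 35116 RefSeq windows of the same length. It was in 5 of 16 cytosolic windows (31.2%), those of AARS, GARS, IARS, MARS and NARS, and in 1 of 14 mitochondrial windows (7.14%), that of YARS2. CACGTG was in 3 of 30 (10%), those of IARS, EARS2 and MARS2, against 7.26% of all windows, and TGACGTCA in 0 of 30, against 1.85%. A match describes letters and is no evidence of binding in these cells. The TARS window held none of these motifs.

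HARS and HARS2, the cytosolic and mitochondrial histidine enzymes, are transcribed away from each other, with 84 bases between their start sites. That interval, at chr5:140691371-140691454 and written on the plus strand, is shown because both genes of a cytosolic and mitochondrial pair begin at its ends, and runs 5′ to 3′ in RefSeq's GRCh38.p14. It holds none of the 3 motifs, so it has no capitals.
HARS/HARS2: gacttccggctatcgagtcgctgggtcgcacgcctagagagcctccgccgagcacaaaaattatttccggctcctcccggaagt

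In the S222A line, doxycycline-treated cells had values below those of untreated cells for most synthetases of both sets, although TARS alone passed the test. The 20 cytosolic synthetases had a median log2 fold change of -0.453, with a range of -0.88 to 0.19, and 19 of the 20 lay below 0. The 16 mitochondrial synthetases had a median of -0.315, with a range of -0.85 to 0.15, and 14 of the 16 lay below 0. Over all 11474 genes tested the median was 0.009 and 49.2% lay below 0. Calls were made in edgeR's quasi-likelihood test, with Benjamini-Hochberg adjustment over the 11474 genes, at an adjusted p under 0.05. Of the 20 cytosolic genes 1 was called lower, and of the 16 mitochondrial genes 0. Over all genes, 190 of 11474 (1.66%) were called lower, so 1 call among the 36 synthetases is near that share. None was called higher, against 2.8% of all genes. At an unadjusted p under 0.05, 10 cytosolic and 2 mitochondrial genes were lower, against 9.26% of all genes. The 3 induced libraries lay below all 3 uninduced libraries for 13 cytosolic genes (65%) and 6 mitochondrial genes (37.5%), against 13% of all genes. In bulk RNA, fewer cells of a type and less RNA per cell cannot be told apart.

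The same picture held per library. Averaged over the set, cytosolic log2 CPM was 6.59, 6.58 and 6.47 in S222A induced replicates 1 to 3, against 6.86, 6.91 and 7.1 in S222A uninduced replicates 1 to 3. WT induced libraries stood at 6.86, 6.98 and 6.93 and WT uninduced libraries at 6.99, 6.87 and 6.99. All 3 S222A induced libraries were therefore below the other 9, which spanned 6.86 to 7.1. The mitochondrial average was 4.18, 4.08 and 4.19 in S222A induced libraries, against 4.41, 4.46 and 4.46 in S222A uninduced, 4.57, 4.32 and 4.48 in WT induced, and 4.54, 4.58 and 4.59 in WT uninduced libraries. Here too the 3 S222A induced libraries were below the other 9. The distance between the sets, in contrast, did not separate the groups. Cytosolic minus mitochondrial log2 CPM was 2.28 to 2.5 in S222A induced libraries and 2.29 to 2.66 in the other 9. As a share of all counts, the cytosolic set took 0.226 to 0.263% in S222A induced libraries, against 0.302 to 0.393% in S222A uninduced ones, and the mitochondrial set 0.0438 to 0.0499% in S222A induced libraries against 0.0517 to 0.0592% in S222A uninduced ones.

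**Figure D2:**
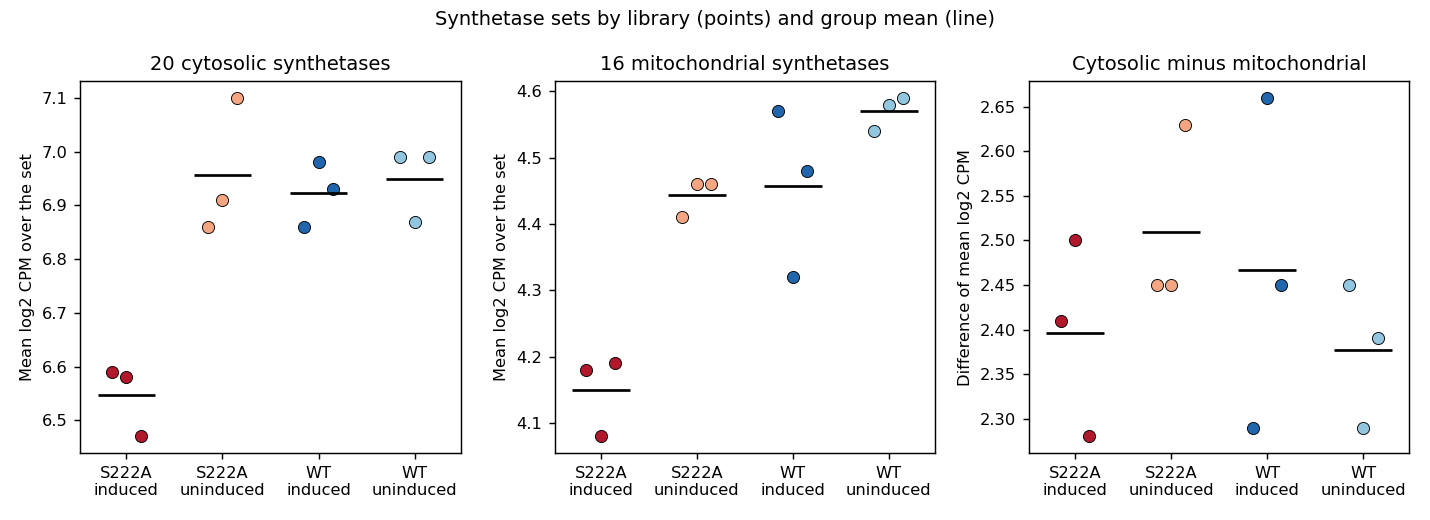
Mean log2 CPM over the 20 cytosolic genes (left) and the 16 mitochondrial genes (middle), and their difference (right), in each of the 12 libraries (points) with the group mean (line); axes do not start at 0. S222A induced libraries lie lowest for both sets, at 6.47 to 6.59 and 4.08 to 4.19, while the difference of 2.28 to 2.5 overlaps the 2.29 to 2.66 of the other libraries.

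TARS, which charges threonine tRNA, was the 1 synthetase of 36 called lower on S222A induction, where 1.66% of all genes were. It stood at 237, 266 and 271 CPM in S222A induced libraries, against 382, 337 and 403 CPM in S222A uninduced libraries. These groups do not overlap. The WT libraries stood at 353, 295 and 319 CPM induced and 305, 330 and 324 CPM uninduced, all above the S222A induced libraries, and WT induced replicate 1 also above the lowest S222A uninduced library. The fall was 1.45-fold (log2 -0.53 ± 0.14 SE, edgeR quasi-likelihood, Benjamini-Hochberg adjusted p = 0.0461). The call was lost without any 1 of the 6 S222A libraries (adjusted p 0.0939 to 0.199, and 0.108 without S222A uninduced replicate 3), although the log2 value stayed between -0.59 and -0.48. It was also lost with no filter on low counts (adjusted p = 0.338), with the groups compared alone (0.0766), with a replicate block (0.117) and without the deepest libraries (0.0567).

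The cytosolic genes next in order of p did not pass. FARSB, the second subunit of the phenylalanine enzyme, stood at 67.2, 61.8 and 55.2 CPM in S222A induced libraries, against 83.6, 87 and 105 CPM in S222A uninduced libraries (log2 -0.57 ± 0.16 SE, edgeR adjusted p = 0.0608). VARS, the valine enzyme, stood at 30.8, 42.1 and 39.4 CPM in S222A induced libraries, against 54.5, 57 and 60.2 CPM uninduced (log2 -0.60 ± 0.17 SE, edgeR adjusted p = 0.0622). Neither gene's groups overlap. YARS, the tyrosine enzyme, stood at 93.5, 66.4 and 67.8 CPM in S222A induced libraries, against 94.3, 123 and 129 CPM uninduced (log2 -0.60 ± 0.19 SE, edgeR adjusted p = 0.0936). Its highest induced library came within 1 CPM of its lowest uninduced one. FARSA had the lowest log2 value of the set (-0.88 ± 0.36 SE) with a wide 95% interval of -1.66 to -0.1. Its level followed the deepest libraries, being higher by 0.74 on the log2 scale in the deepest library of each group than in the others, while EPRS was lower by a log2 difference of -0.85 and LARS by -0.63. With a term for the deepest library of each group, 14 cytosolic genes and VARS2 were called lower, against 9.12% of all genes.

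In the mitochondrial set the smallest p-values on S222A induction were those of VARS2 and NARS2. VARS2, the valine enzyme of the organelle, stood at 10.7, 7.36 and 10.8 CPM in S222A induced libraries, against 16.1, 15.6 and 18.6 CPM in S222A uninduced libraries (log2 -0.77 ± 0.26 SE, edgeR adjusted p = 0.112). Its groups do not overlap. NARS2, the asparagine enzyme, stood at 9, 9.36 and 9.17 CPM induced, against 16.1, 14.4 and 8.76 CPM uninduced (log2 -0.59 ± 0.25 SE, edgeR adjusted p = 0.219), with S222A uninduced replicate 3 below all 3 induced libraries. Errors were larger in this set, with SE of 0.14 to 0.4 (median 0.26) against 0.13 to 0.36 (median 0.19) in the cytosolic set. The 95% interval left out a fall of 2-fold or more for 10 of the 16 mitochondrial genes and for 16 of the 20 cytosolic genes. HARS2 and RARS2 lay above 0, at log2 0.07 ± 0.23 and 0.15 ± 0.29 SE.

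**Figure D3:**
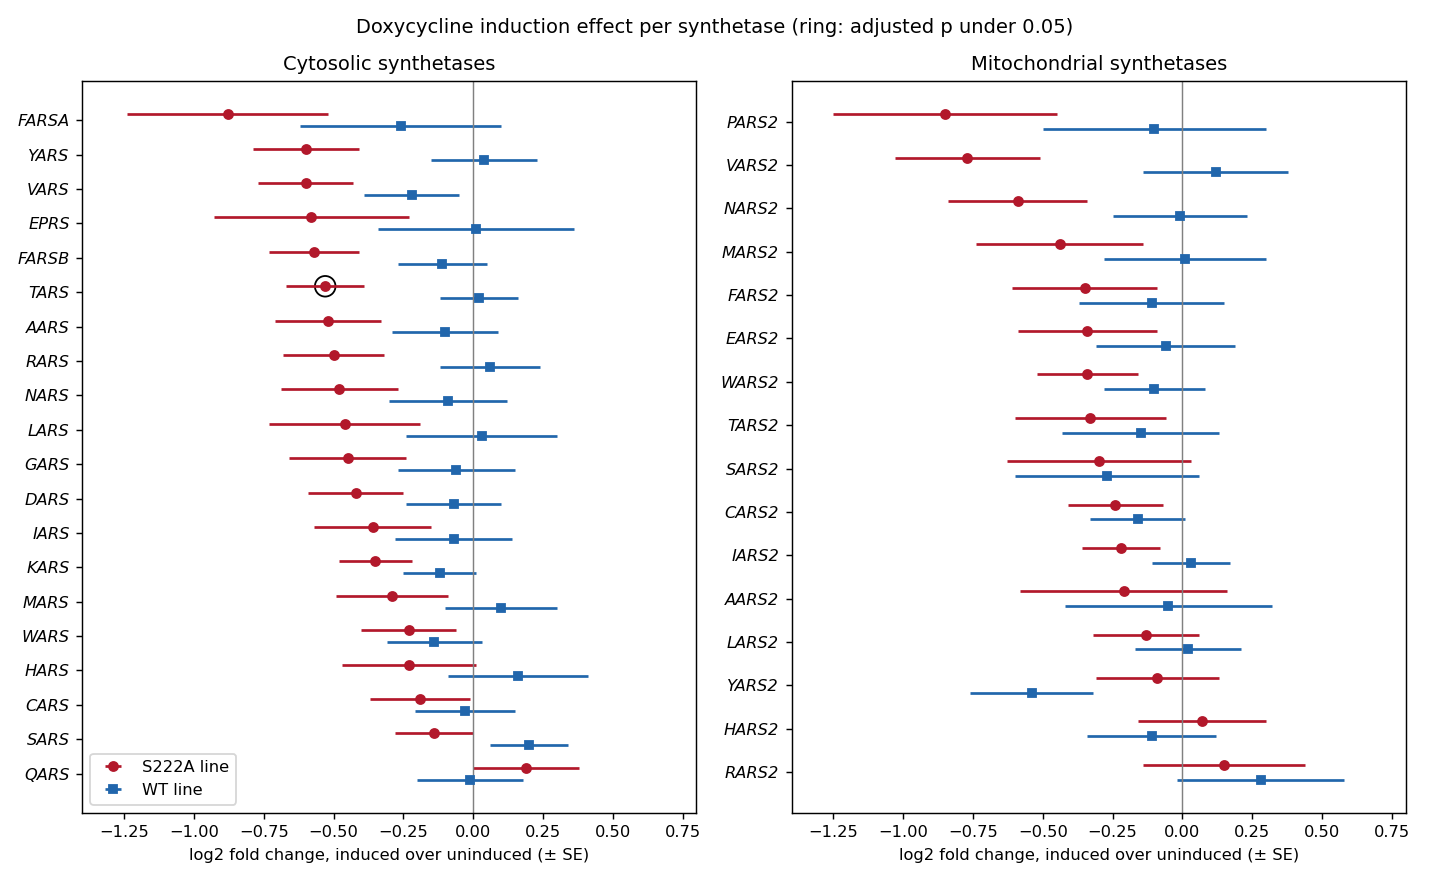
Log2 fold change ± SE of each synthetase, induced over uninduced, in the S222A line (circles) and in the WT line (squares), for the cytosolic set (left) and the mitochondrial set (right), ordered by the S222A value; the ring marks the gene with an adjusted p under 0.05. S222A values lie below 0 for 19 of 20 cytosolic and 14 of 16 mitochondrial genes with TARS ringed, and WT values scatter about 0.

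Medians of the groups by structure and role lay below 0 throughout on S222A induction. The 8 enzymes of the multisynthetase complex (DARS, EPRS, IARS, KARS, LARS, MARS, QARS and RARS) had a median log2 of -0.389, and the 12 outside it -0.503. QARS, the glutamine enzyme of the complex, was the 1 cytosolic gene above 0, at 158, 147 and 201 CPM in S222A induced libraries against 174, 140 and 127 CPM in S222A uninduced libraries (log2 0.19 ± 0.19 SE). The scaffold genes AIMP1 and EEF1E1 stood at -0.23 and -0.34, neither called. The 12 genes listed as reported ATF4 targets had a median of -0.453 with all 12 below 0, and the other 8 cytosolic genes had a median of -0.457 with 7 below 0. Enzymes of class I, with a Rossmann-fold catalytic domain, had a median of -0.336 over 19 genes of both sets, and those of class II, built on an antiparallel sheet, a median of -0.418 over 17 genes. EPRS, which charges both glutamate and proline, was counted in class I only, and FARSB, the second subunit of the phenylalanine enzyme, in class II. GARS and KARS, which supply both compartments, stood at -0.45 ± 0.21 and -0.35 ± 0.13 SE. These lists share genes and none was tested as a list.

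Set against its own mitochondrial partner for the same amino acid, the cytosolic gene had the lower log2 value in 9 of 16 pairs and the higher one in 7. The median of the cytosolic minus mitochondrial difference was -0.17, with a range of -0.65 for RARS and RARS2 to 0.27 for EPRS and PARS2. RARS stood at 171, 175 and 165 CPM in S222A induced libraries against 216, 192 and 318 CPM in S222A uninduced libraries, and RARS2 at 54, 53.5 and 32.9 CPM in S222A induced libraries against 32.1, 45.1 and 51.5 CPM in S222A uninduced ones. RARS groups do not overlap and RARS2 groups do. For valine and for asparagine both partners had negative values of similar size, at -0.60 for VARS and -0.77 for VARS2, and at -0.48 for NARS and -0.59 for NARS2. The histidine pair, which shares that interval of 84 bases, stood at -0.23 ± 0.24 SE for HARS and 0.07 ± 0.23 SE for HARS2. EPRS enters 2 pairs, and QARS, GARS, KARS, DARS and FARSB enter none.

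**Figure D4:**
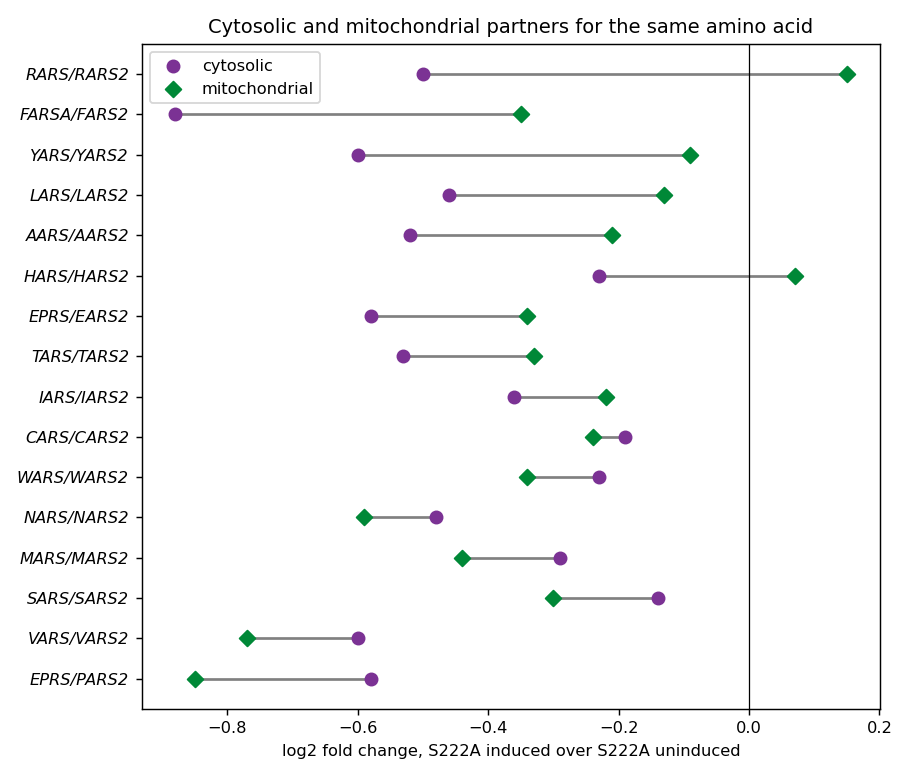
Log2 fold change on S222A induction of each cytosolic synthetase (circle) and its mitochondrial partner (diamond), joined by a line and ordered by the difference. The cytosolic gene lies to the left in 9 of 16 pairs, by up to 0.65 for arginine, and to the right in 7, by up to 0.27 for proline.

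In the WT line doxycycline was accompanied by no called change among the 36 genes. The median log2 was -0.049 for the cytosolic set (range -0.26 to 0.2, 12 of 20 below 0) and -0.079 for the mitochondrial set (range -0.54 to 0.28, 11 of 16 below 0), against a median of 0.006 and 48.8% below 0 over all genes. In this comparison edgeR's quasi-likelihood test called 0.00872% of all genes. By DESeq2 the count of synthetases called was also 0, where 4 of 11474 genes were called higher and 0 lower. At an unadjusted p under 0.05, 1 synthetase, YARS2, was lower, against 0.488% of all genes. YARS2, the mitochondrial tyrosine enzyme, stood at 25, 19.1 and 16.1 CPM in WT induced libraries against 28.3, 30.9 and 29.4 CPM in WT uninduced libraries (log2 -0.54 ± 0.22 SE, edgeR adjusted p = 1). Its WT groups do not overlap, against 2.98% of all genes lower without overlap, and in the S222A line it stood at 19.4, 18.3 and 17 CPM induced against 17.3, 24.6 and 15.3 CPM uninduced, with overlap. RARS2, next in the set by p, had a log2 of 0.28 ± 0.3 SE. The 4 cytosolic genes with the smallest p were SARS at 0.20, VARS at -0.22, WARS at -0.14 and KARS at -0.12, all with adjusted p = 1 in edgeR's test. The 95% interval left out a fall of 1.5-fold or more for 18 of 20 cytosolic and 7 of 16 mitochondrial genes.

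The difference between the induction effects, S222A minus WT, was tested in the same model and passed for no synthetase. The median was -0.389 for the cytosolic set, with 19 of 20 below 0, and -0.205 for the mitochondrial set, with 14 of 16 below 0, against a median of -0.009 and 50.9% below 0 over all genes, of which 0.0784% were called. At an unadjusted p under 0.05, TARS, YARS, RARS and VARS2 were lower, against 3.04% of all genes. TARS had a difference of -0.55 ± 0.2 SE, the smallest adjusted p of the 36 at 0.614 in edgeR's test. YARS had -0.63 ± 0.27, RARS -0.55 ± 0.26, FARSB -0.47 ± 0.23, VARS2 -0.90 ± 0.36 and NARS2 -0.59 ± 0.35 (log2 ± SE), with adjusted p of 0.695 to 0.863 in edgeR's test. These intervals are wide, and for 9 of the 20 cytosolic and 10 of the 16 mitochondrial genes they include a difference of 2-fold or more downward. DESeq2 called 0 of the 36 as well, where it called 25 of 11474 genes higher and 11 lower.

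**Figure D5:**
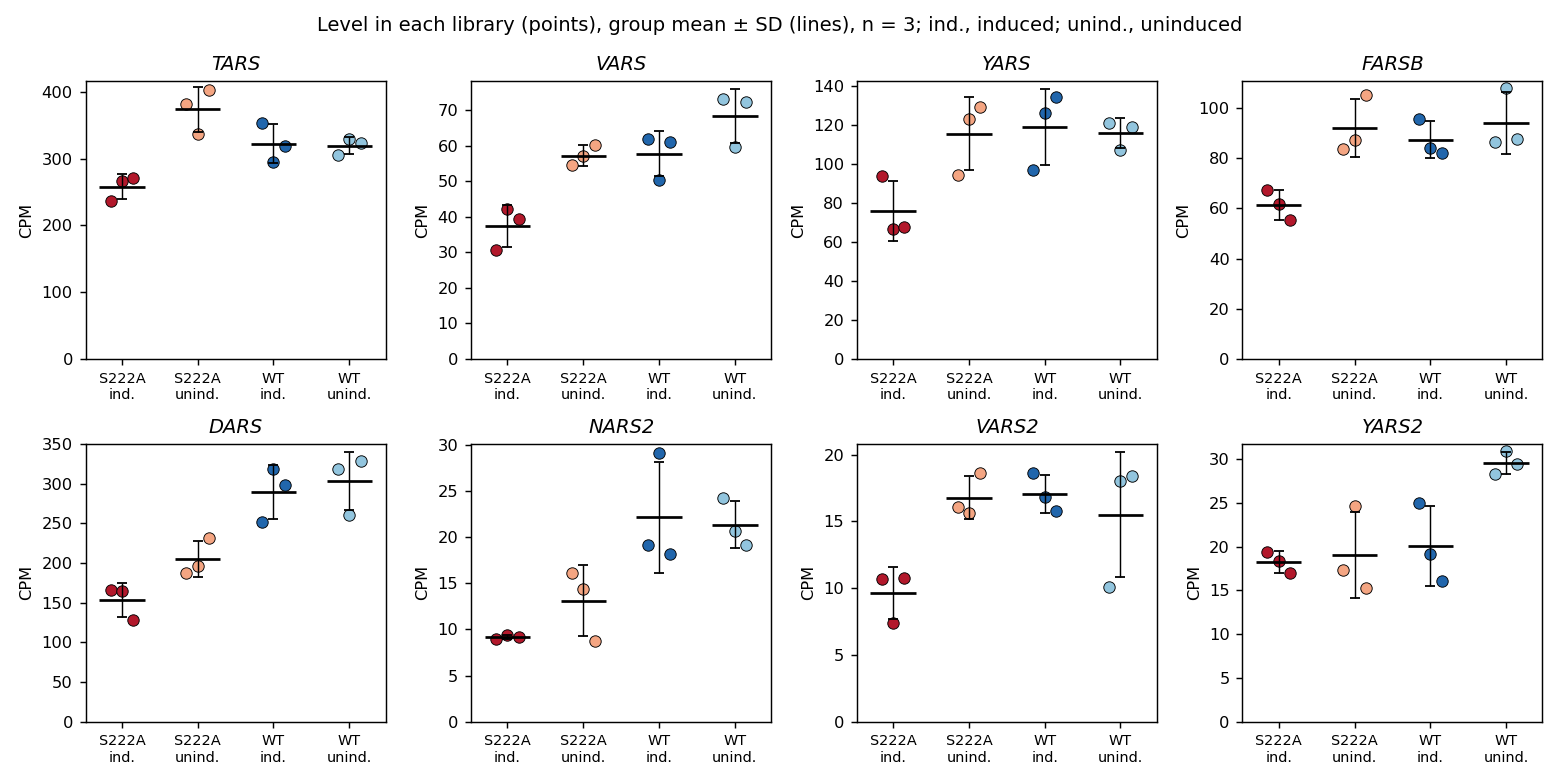
CPM of 8 synthetases in each library (points), with the group mean and SD (n = 3), for S222A induced, S222A uninduced, WT induced and WT uninduced cells. S222A induced values are lowest for TARS at 237 to 271, VARS, FARSB, DARS at 128 to 166 and, with overlap, NARS2, while YARS2 is highest in WT uninduced libraries at 28.3 to 30.9.

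Between the lines after doxycycline, 3 synthetases were lower in S222A cells. All 20 cytosolic genes lay below 0 (median log2 -0.328, range -0.92 to -0.04), as did 14 of 16 mitochondrial genes (median -0.292, range -1.2 to 0.25), against 49.9% of all genes and a median of 0.001. DARS and VARS in the cytosolic set and NARS2 in the mitochondrial set were called lower, against 2.61% of all genes. At an unadjusted p under 0.05, 9 cytosolic and 5 mitochondrial genes were lower, against 9.96% of all genes. Groups did not overlap, S222A being lower, for 9 cytosolic and 5 mitochondrial genes, against 12.9% of all genes. S222A induced libraries serve both in this comparison and in that on S222A induction, so the comparisons are not independent.

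DARS, the aspartate enzyme of the complex, stood at 166, 165 and 128 CPM in S222A induced libraries against 252, 319 and 298 CPM in WT induced libraries, without overlap. The level was 1.89-fold lower (log2 -0.92 ± 0.17 SE, edgeR quasi-likelihood, Benjamini-Hochberg adjusted p = 0.0073), and the gene was called under all 15 alternatives of processing and left-out libraries, with an adjusted p of at most 0.0345. NARS2 stood at 9, 9.36 and 9.17 CPM in S222A induced libraries against 19.1, 29.1 and 18.2 CPM in WT induced libraries, again without overlap. It was 2.3-fold lower (log2 -1.20 ± 0.25 SE, edgeR adjusted p = 0.0129), and its call was lost without S222A induced replicate 1, 2 or 3 (adjusted p 0.0525 to 0.0548). VARS stood at 30.8, 42.1 and 39.4 CPM in S222A induced libraries against 61.8, 50.4 and 61.1 CPM in WT induced libraries and was 1.55-fold lower (log2 -0.63 ± 0.17 SE, edgeR adjusted p = 0.0398). The call of VARS was lost without WT induced replicate 1 or 3 and without each S222A induced replicate (adjusted p up to 0.173). It was also lost with no filter (adjusted p = 0.166), with the groups compared alone (0.0845), with a replicate block (0.0952) and without the deepest libraries (0.0807).

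No synthetase was called between the uninduced lines, where edgeR's test called 0.392% of all genes. In uninduced cells DARS stood at 188, 196 and 231 CPM in the S222A line against 319, 261 and 329 CPM in the WT line, without overlap (log2 -0.57 ± 0.17 SE, edgeR adjusted p = 0.313). NARS2 stood at 16.1, 14.4 and 8.76 CPM in the S222A line against 24.2, 20.7 and 19.2 CPM in the WT line (log2 -0.62 ± 0.25 SE, edgeR adjusted p = 0.588). VARS, in contrast, had overlapping groups (log2 -0.26 ± 0.17 SE). At an unadjusted p under 0.05, DARS, NARS2 and YARS2 were lower in the S222A line, against 3.3% of all genes, and RARS was higher, against 4.17%. Without overlap, DARS, WARS, NARS2, YARS2 and EARS2 were lower, against 6.1% of all genes, and TARS and RARS higher, against 6.24%. DESeq2 likewise called 0 synthetases, where it called 64 of 11474 genes higher and 19 lower. The median log2 was 0.047 for the cytosolic set, with 10 of 20 below 0, and -0.132 for the mitochondrial set, with 11 of 16 below 0, against a median of 0.002 and 49.7% below 0 over all genes. The clonal origin of the lines and the S222A change cannot be told apart in these values.

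Over the 4 groups, S222A induced cells had the lowest mean CPM for 17 of 20 cytosolic and 14 of 16 mitochondrial synthetases. The highest mean fell in S222A uninduced cells for 10 cytosolic genes and in WT uninduced cells for 8, and for the mitochondrial genes it fell most often in WT uninduced cells, in 8 of 16. These counts describe group means and do not take the replicate error into account. The share of all genes with their lowest mean in S222A induced cells was not counted. The counts also rest on the same S222A induced libraries as the comparisons above.

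Of 20 genes of the ATF4 axis other than synthetases, 17 were tested, and on S222A induction 2 were called lower, against 1.66% of all genes, and 1 higher, against 2.8% (median log2 -0.263, against 0.009 over all genes). TRIB3, a pseudokinase induced by ATF4, fell 2.35-fold (log2 -1.24 ± 0.21 SE, edgeR adjusted p = 0.00577), and PHGDH, the first enzyme of serine synthesis, fell 1.71-fold (log2 -0.77 ± 0.17 SE, edgeR adjusted p = 0.026). VLDLR, a lipoprotein receptor, rose (log2 1.34 ± 0.19 SE, edgeR adjusted p = 0.0015). ATF4 itself had a log2 of -0.25 ± 0.15 SE (edgeR adjusted p = 0.41). None of the 17 was called in the WT line, where 0.00872% of all genes were called. For the difference of inductions none of the 17 passed either (smallest adjusted p 0.141 in edgeR's test), against 0.0784% of all genes called. Between the induced lines, 3 of the 17 were called lower in S222A cells, against 2.61% of all genes. These were TRIB3, PHGDH and PSAT1, the second enzyme of serine synthesis (log2 -0.97, -1.23 and -1.06). VLDLR and SLC7A11, the cystine transporter, were called higher (1.33 and 2.19), against 428 of all 11474 genes. SLC7A11 was called higher in the S222A line without doxycycline as well (log2 1.75, edgeR adjusted p = 0.00169), against 39 of all 11474 genes. PHGDH and PSAT1 were also lower there without doxycycline (log2 -0.72 and -0.44). Their groups did not overlap, against 6.1% of all genes lower without overlap, and neither was called. TRIB3 and VLDLR stood at -0.09 and 0.01 between the uninduced lines, with overlap.

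The genes listed for delivery and proofreading of charged tRNA were called in none of the 5 comparisons. On S222A induction, 1.66% of all genes were called lower and 2.8% higher. Between the induced lines, 2.61% were called lower, and 428 of 11474 higher. The share in either direction was 0.00872% on WT induction, 0.0784% for the difference of inductions and 0.392% between the uninduced lines. The 11 tested genes of cytosolic delivery and proofreading, such as the elongation factor EEF1A1, had a median log2 of -0.149 on S222A induction (range -0.35 to 1.15). The 10 genes of mitochondrial delivery, such as TUFM and the amidotransferase subunit QRSL1, had a median of -0.209 (range -0.46 to 0.3). Of 12 interferon-gamma response genes, 7 were tested and 2 rose on S222A induction, against 2.8% of all genes called higher. These were the transcription factor IRF1 (log2 1.07) and the GTPase GBP2 (log2 1.51). WARS, the tryptophan enzyme, which interferon-gamma induces in human cells, stood at 32.2, 32.1 and 28.2 CPM in S222A induced libraries against 34, 37.8 and 37.2 CPM in S222A uninduced libraries (log2 -0.23 ± 0.17 SE, not called). MYC, which drives ribosome and translation genes, stood at 81.04 to 96.37 CPM in S222A induced libraries against 53.66 to 230.64 CPM in S222A uninduced libraries (log2 -0.89 ± 0.38 SE, edgeR adjusted p = 0.217). It was called lower than in WT induced libraries, which had 188.33 to 280.01 CPM (log2 -1.47 ± 0.38 SE, edgeR adjusted p = 0.0389), against 2.61% of all genes. Without doxycycline MYC was also lower in the S222A line, without overlap but not called (log2 -0.79 ± 0.37 SE, edgeR adjusted p = 0.687), against 6.1% of all genes lower without overlap. The granule genes MPO and AZU1 of the myeloid list fell on S222A induction (log2 -1.71 and -1.47), 2 of its 7 tested members against 1.66% of all genes called lower. Of these 7 members, 6 lay below 0, and PTPRC lay above (log2 0.28 ± 0.15 SE, not called). MPO ran from 0.693 to 19.3 CPM, and the floor of 3 counts is 0.228 to 3.43 CPM, so its lowest values are in the range of that floor. In the WT line MPO had a log2 of -0.96 and was not called. Its induced libraries lay below all uninduced ones there, against 2.98% of all genes. Between the uninduced lines AZU1 was higher in S222A cells (log2 0.99 ± 0.27 SE) and MPO lower (-1.25 ± 0.38 SE). Neither gene was called there. Neither gene's groups overlapped, against 6.24% of all genes higher and 6.1% lower without overlap. Between the induced lines AZU1 stood at -0.16 ± 0.27 SE, not called. MPO was called lower there (log2 -2.01 ± 0.41 SE), against 2.61% of all genes. The part of MYC, ATF4 targets and the myeloid markers in the synthetase values was not tested.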

How the data were processed

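RNA sequencing of 12 libraries was analysed. The authors deposited raw whole-number counts per gene symbol, with no normalization. Per the submitters' processing notes, build hg19 and the tools DESeq2, HTSeq 0.6.1 and STAR 2.4 were used. The sources used here give neither the annotation release nor the strand setting. The header lacks 1 tab, so columns were matched by name to the sample descriptions, and the S222A columns are named MEF2C without S222A. Within each group, libraries differed beyond sampling noise (chi-square per degree of freedom 2.64 to 35.2).

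Genes passing filterByExpr (minimum count 10; 11474 genes, 99.47% of counts) were tested in R 4.3.3 with edgeR 4.0.16, using TMM factors, robust quasi-likelihood F tests, all 12 libraries, 1 mean per group and 8 residual degrees of freedom. P-values were adjusted by Benjamini-Hochberg over all genes. SE is the absolute log2 fold change over the square root of F. The floor of 3 counts is 0.228 to 3.43 CPM, for counting error only. The scripts were tested on simulated data. Set averages use log2 CPM with a prior count of 2. Exon lengths and overlaps come from GENCODE v29, and promoters from RefSeq, of which some sequences are not reported here.

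Members, lists and tests were chosen with earlier results of these data known. Genes were named by rule: every synthetase called in any comparison, and on each induction and their difference the 4 cytosolic and 2 mitochondrial genes with the smallest p; others appear by level, range or role group, and FARSA, EPRS, LARS and QARS were singled out after their values were seen. Other list genes are named where called, with ATF4 and MYC. The alternatives were other scaling, no filter, DESeq2 1.42.0, limma 3.58.1 voom, the groups compared alone, a replicate block, a term for or removal of the deepest libraries, and leaving out each library.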

Additional observations from a re-analysis of the deposited data

How the results depend on the processing

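Depth limits the precision of genes with low counts, down to 2 counts for PARS2. The medians of both sets on S222A induction and between the induced lines stayed below 0 in every alternative run. On S222A induction, 3 cytosolic genes were called by DESeq2 (FARSB, TARS and VARS), and 14 cytosolic genes and 1 mitochondrial gene with a term for the deepest libraries. Of all genes, DESeq2 called 3.16% lower and the fit with that term 9.12%. With no filter, with the groups compared alone, and without the deepest libraries, 1 cytosolic gene was called, FARSA in place of TARS. In that order, 0.502%, 1.4% and 2.31% of all genes were called lower. Between the induced lines, 5 cytosolic genes were called by DESeq2 (4.13% of all genes called lower), 4 by voom (3.6%) and 4 without the deepest libraries (3.59%). The count was 1 with no filter (0.824% of all genes), 1 with the groups compared alone (1.39%) and 10 with the term for the deepest libraries (10%). The mitochondrial count there was 2 by voom and 3 with that term. Between the uninduced lines that term called 1 cytosolic gene, DARS, against 0.549% of all genes called lower. The cause of these differences was not tested. Without the filter, 31447 genes were tested and the median of all genes moved to 0.123 on S222A induction, 0.111 for the difference of inductions and 0.112 between the induced lines.

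Whether replicate numbers pair the samples is not stated. Over 18 same-numbered pairs the correlation of deviations ran from -0.53 to 0.64, with 6 over 0.1. Pairs with different numbers were not correlated, so these values cannot decide whether the samples are paired. With the replicate block, 0 cytosolic genes were called on S222A induction and 1 between the induced lines, and over all genes on S222A induction 170 were higher and 65 lower, against 321 and 190 without it. Between the induced lines the fit with the block called 1.03% of all genes lower.

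With only the deepest library of each group, an alternative chosen after seeing the data and with no test, the mitochondrial median was -0.22 on S222A induction, 0.029 on WT induction and -0.448 between the induced lines. Between the uninduced lines the cytosolic median was then -0.115 and the cytosolic minus mitochondrial difference 0.051. Without the deepest libraries the mitochondrial median between the uninduced lines was -0.051.

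Leaving out 1 library at a time, the counts called on S222A induction were 0 for both sets, and between the induced lines 1 to 3 for the cytosolic and 0 to 1 for the mitochondrial set. Over all genes, 0.369 to 0.854% were called lower on S222A induction and 0.72 to 2.27% between the induced lines. Medians on S222A induction ranged from -0.493 to -0.321 (cytosolic; -0.345 without S222A uninduced replicate 3) and their difference from the mitochondrial median from -0.233 to 0.024, turning sign without S222A induced replicate 3. On WT induction they ranged from -0.081 to 0.041 (cytosolic) and -0.113 to 0.019 (mitochondrial), with a difference of -0.1 to 0.145. The cytosolic median of the difference of inductions ranged from -0.452 to -0.274. Between the induced lines the mitochondrial median ranged from -0.436 to -0.299. Between the uninduced lines the cytosolic median ranged from -0.096 to 0.067, the mitochondrial from -0.213 to -0.092, and the difference from 0.015 to 0.177. WARS on WT induction was at 0 without WT induced replicate 3.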
